A study of Homo sapiens with 4 samples.

Results

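The mitochondrial ribosomal protein genes were taken as all protein-coding genes of the GENCODE annotation whose symbol begins with MRPL or MRPS followed by a digit. This gave 78 genes, 49 named MRPL and 29 named MRPS, of 19663 nuclear protein-coding genes. Their promoters were examined for c-MYC in MIA PaCa-2 cells, a long-established human line grown from a PDAC, a pancreatic ductal adenocarcinoma. Chromatin immunoprecipitation followed by sequencing (ChIP-seq) was done after 8 h in the solvent DMSO, in the inhibitor AMG510 at 100 nM or in the MEK inhibitor trametinib at 10 nM, with 1 c-MYC library per treatment. A library made with non-specific immunoglobulin (IgG) came from DMSO cells only, so neither drug has an IgG library of its own. Each of the 4 libraries stands alone, so no difference below has a replicate check and none was tested.

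Mitochondria keep their own ribosome, which translates the few proteins encoded by mitochondrial DNA, all of them subunits of the respiratory chain and the ATP synthase. Its RNAs are encoded in the mitochondrion, whereas every one of its proteins is encoded in the nucleus, made in the cytosol and imported. MRPL proteins build the large subunit, which joins amino acids, and most MRPS proteins the small subunit, which reads the messenger RNA. Despite their names, MRPS18A and MRPS30 sit in the large subunit. c-MYC binds DNA as a dimer with MAX, preferably at the E-box CACGTG and also at related sequences such as CACGCG, and is known as a regulator of ribosome and mitochondrial gene expression.

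A gene was counted as having a promoter peak where the summit of a called peak lay at most 1 kb from a transcription start site (TSS) of its protein-coding transcripts. A pair of values describes each peak. The number of tags is the pileup of extended reads at the summit, recovered here from the deposited values, and the fold enrichment is that pileup over the local background, as deposited. Between 22700000 and 24800000 tags were estimated to have entered peak calling in the 4 libraries. Where the background was at its genome-wide level, 7 or 8 tags sufficed. The IgG, DMSO, AMG510 and trametinib lists held 2966, 9552, 10378 and 5431 peaks. Member promoter peaks in DMSO had an interquartile range of 14 to 20 tags, so a gene absent from a list was not called at this depth and may still be bound.

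E-boxes near c-MYC summits are shown first, since c-MYC is known to bind such sequences. Each is the GRCh38 reference, read 5′ to 3′ on the strand of the gene, with the E-box in capitals. The first 4 are the members with CACGTG within 100 bp of a DMSO summit. The other 4 have CACGCG, which reads CGCGTG on the opposite strand, near one of the 10 largest DMSO peaks. MRPL45 also has it. Windows that touch an exon are 30 bases long and the others 60.
MRPL3 (chr3:131502888-131502917, minus strand): ggctactgcgtcCACGTGgcggtggcgtgg
MRPL45 (chr17:38297023-38297052, plus strand): cactcccgcgagCACGTGcgcgtcctcgct
MRPS33 (chr7:141014748-141014807, minus strand): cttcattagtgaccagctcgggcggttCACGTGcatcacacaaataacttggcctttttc
MRPS18B (chr6:30618013-30618072, plus strand): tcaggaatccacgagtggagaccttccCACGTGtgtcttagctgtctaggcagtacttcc
MRPL4 (chr19:10252413-10252442, plus strand): cggaagaggcagCGCGTGcgaccgagaacc
MRPS30 (chr5:44809434-44809463, plus strand): cggcgcaggcggCGCGTGcaccgttacgag
MRPS17 (chr7:55951999-55952028, plus strand): ccaaggcaccctCGCGTGagagccctgaga
MRPL48 (chr11:73787998-73788027, plus strand): gtagattccacgCACGCGgggcgcggggag
The E-box of MRPL3 lies 69 bp downstream of the canonical TSS and was 31 bp from the summit in DMSO, 26 bp in AMG510 and 45 bp in trametinib. In MRPL45 CACGTG lies 131 bp before the canonical TSS, with the DMSO summit 73 bp away. The E-boxes of MRPS33 and MRPS18B lie 175 and 202 bp downstream, 81 and 17 bp from their DMSO summits. The CACGCG copies of MRPL4, MRPS30, MRPS17 and MRPL48 were 35, 44, 40 and 37 bp from the DMSO summits.

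In DMSO, 33 of the 78 genes (42.3%) had a c-MYC promoter peak, against 24.2% of all protein-coding genes. The AMG510 list held 21 of them (26.9%), against 15.3% of all genes. In trametinib 11 were called (14.1%), close to the 11.8% of all genes. No member had a promoter peak in IgG, where the share of all genes was 0.559%. The excess over all genes was thus present in DMSO and AMG510 and small in trametinib. With a score above 60 it was not present in AMG510, where 2 members remained beside 2.98% of all genes. In total 38 members (48.7%) were called in at least 1 c-MYC list, compared with 31.7% of all genes.

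**Figure D1:**
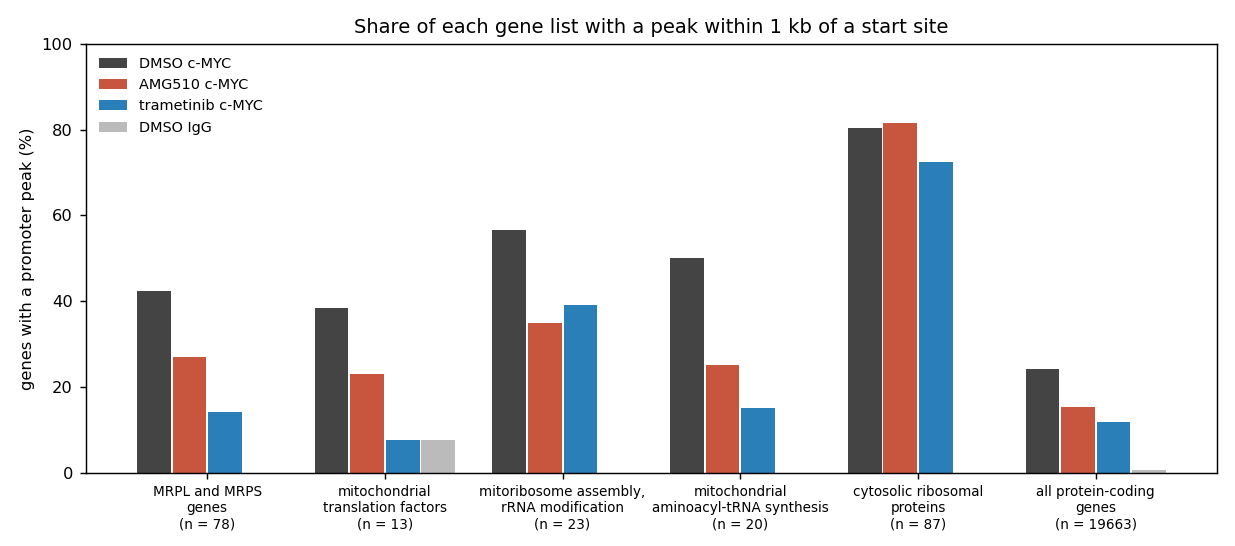
Percentage of genes (y axis) with a peak summit within 1 kb of a protein-coding TSS, by gene list (x axis, with the number of genes) and library (bar colour), 1 library per bar. The bar of the MRPL and MRPS genes goes from 42.3% in DMSO to 14.1% in trametinib, and that of all protein-coding genes from 24.2% to 11.8%. The other mitochondrial lists are also lower in trametinib than in DMSO. Cytosolic ribosomal protein genes stay between 72.4% and 81.6% in the c-MYC libraries.

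The ribosome of the cytosol gave a different picture. Of 87 genes for cytosolic ribosomal proteins, 70 had a c-MYC promoter peak in DMSO, 71 in AMG510 and 63 in trametinib. Their strongest promoter peaks in DMSO held a median of 32.5 tags at a fold enrichment of 7.58. The 33 mitoribosomal genes had a median of 16 tags (range 11 to 60) at a fold of 5.20, and all genes with a promoter peak a median of 16 tags at 5.01. In level, the mitoribosomal promoters therefore resembled the bulk of c-MYC promoters rather than those of the cytosolic ribosome.

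MRPL3 and MRPS5 had a promoter peak in all 3 c-MYC lists (2.56% of the members, against 5.59% of all genes). MRPL3, a core protein near the catalytic centre of the large subunit, had by far the highest pileup of the family. Its peak held 60 tags in DMSO (95% counting interval 45.8 to 77.2), 46 in AMG510 (33.7 to 61.4) and 38 in trametinib (26.9 to 52.2). The fold enrichment was 12.6, 13.6 and 9.95, respectively, above 99.7%, 99.8% and 99.0% of the peaks of each list. The DMSO peak spans chr3:131502683-131503028, and all 3 summits fall in the 5′ UTR in exon 1, with those of AMG510 and trametinib 5 and 14 bp from that of DMSO. For MRPL3 the tags fell in the order DMSO, AMG510, trametinib, but all their intervals overlap, also those of DMSO and trametinib. The fold enrichment was highest in AMG510. MRPS5, a small-subunit protein with a bacterial counterpart, was far weaker. Its 21 tags in DMSO (fold 5.85) compare with 11 in AMG510 (4.28) and 13 in trametinib (4.95). Its DMSO peak (chr2:95121624-95121977) has its summit 41 bp before the TSS.

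The next strongest members in DMSO stood close together in fold enrichment. MRPL4, whose bacterial counterpart lines the exit tunnel of the large subunit, had 29 tags at a fold of 6.77. MRPS30 had 26 tags at 6.29, in the coding part of exon 1. MRPL36 had 29 tags at 6.24, in an intron near the canonical start. MRPL45, which sits at the tunnel exit and holds the ribosome at the inner membrane, had 15 tags at 6.22. MRPS17 had 20 tags at 6.16 and MRPS27, a pentatricopeptide repeat protein of the small subunit, 22 tags at 5.79. MRPL48 had 16 tags at 5.77 and MRPL42 had 14 at 5.75. The counting interval of MRPL3 in DMSO lay above that around 29 tags, which runs from 19.4 to 41.6. The latter overlaps that around 14 tags (7.65 to 23.5). Overlap does not show equal pileups, and no ratio between members was computed. The MRPS27 peak (chr5:72308065-72308646) lies at an internal start site, within an intron of the canonical transcript. In trametinib MRPS27 had a second promoter peak of 14 tags, with its summit 301 bp before the canonical start. That summit also lay within 1 kb of a start of PTCD2.

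**Figure D2:**
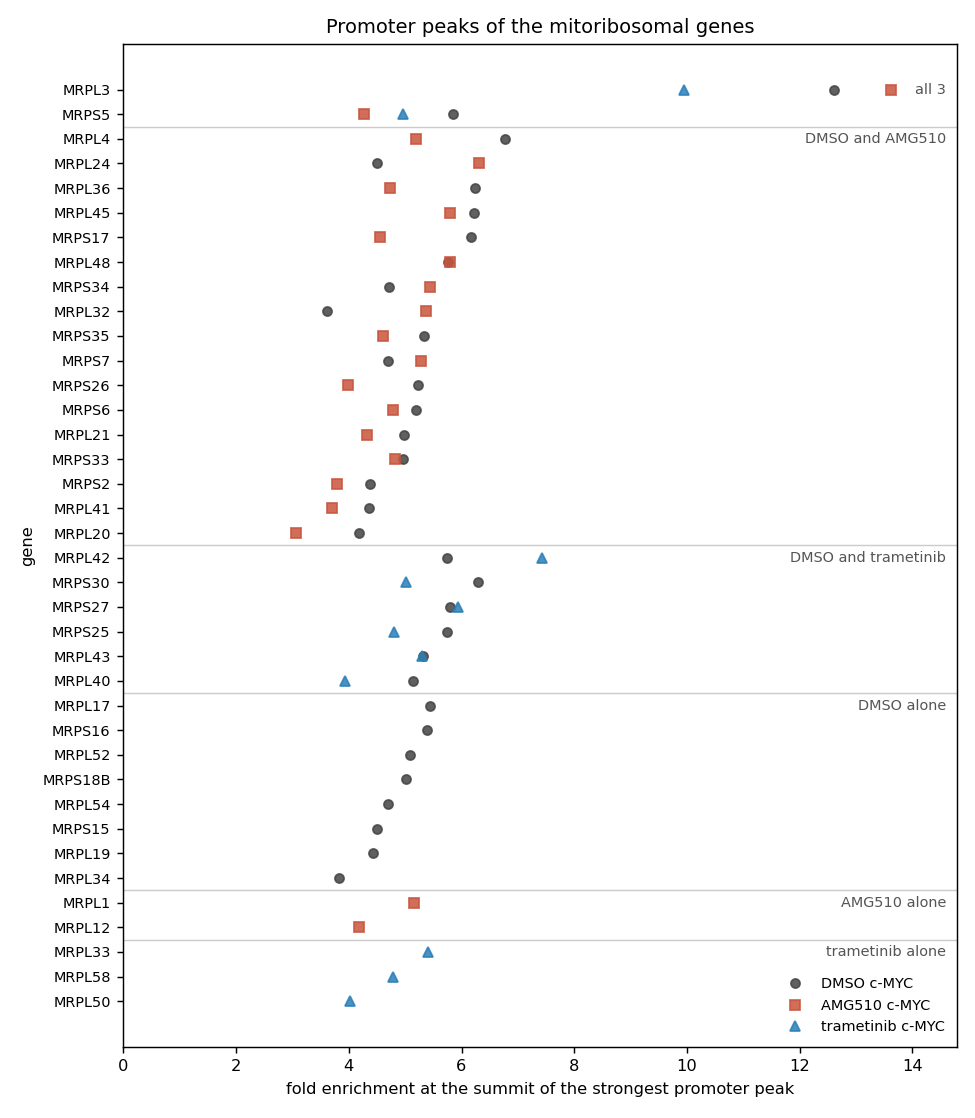
Fold enrichment at the summit of the strongest promoter peak (x axis) for each of the 38 mitoribosomal genes called in at least 1 c-MYC list (y axis), with the library given by marker shape and colour and the genes grouped by the lists that call them. MRPL3 stands alone between 9.95 and 13.6, and the highest of the other points is MRPL42 in trametinib at 7.42.

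Of the 33 genes called in DMSO, 19 (57.6%) were also called in AMG510, against 43.0% of all genes with a DMSO promoter peak. Besides MRPL3 and MRPS5, these were MRPL4, MRPL20, MRPL21, MRPL24, MRPL32, MRPL36, MRPL41, MRPL45, MRPL48, MRPS2, MRPS6, MRPS7, MRPS17, MRPS26, MRPS33, MRPS34 and MRPS35. The largest folds in AMG510 after MRPL3 were those of MRPL24 (24 tags, fold 6.30), MRPL45 and MRPL48 (13 tags each, 5.80) and MRPS34 (16 tags, 5.45). MRPL24 was weaker in DMSO, with 16 tags at 4.50. MRPS34 had 18 tags at 4.72 in DMSO, but its summit there lay 454 bp from that in AMG510, within 1 kb of EME2 and NME3, and the 2 peaks do not overlap.

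In trametinib, 8 of the 33 genes (24.2%) were called, against 35.2% of all genes with a DMSO promoter peak. Besides MRPL3 and MRPS5, these were MRPL40, MRPL42, MRPL43, MRPS25, MRPS27 and MRPS30. MRPL42 had the second largest fold in this list, with 19 tags at 7.42, above its 14 tags at 5.75 in DMSO. MRPS27 had 18 tags at 5.94. MRPL43, which shares its promoter with TWNK, the gene for the mitochondrial DNA helicase, had 13 tags at 5.29. The share retained in AMG510 was above the background only without a filter on the peaks. A fold enrichment above 5 gave 4 of 20 (20.0%, against 29.1%), a score above 60 gave 1 of 13 (7.69%, against 23.0%), and an equal number of peaks per list gave 12 of 31 (38.7%, against 39.0%). In trametinib they gave 5 of 20, 2 of 13 (15.4%) and 8 of 31 (25.8%), against 27.1%, 23.2% and 41.8%.

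Neither drug list held MRPL17, MRPL19, MRPL34, MRPL52, MRPL54, MRPS15, MRPS16 or MRPS18B. These are 8 of the 33 DMSO genes (24.2%), fewer than the 44.9% among all genes with a DMSO promoter peak. The largest were MRPL17 (13 tags, fold 5.44), MRPS16 (14 tags, 5.38), MRPL52 (13 tags, 5.09), MRPS18B (17 tags, 5.02) and MRPL54 (14 tags, 4.70). MRPL54 was also the member closest to the distance limit, with its summit 846 bp before the TSS. The nearest peaks beyond the limit were those of MRPL40 in AMG510 at 1234 bp, MRPL18 in DMSO at 1280 bp and MRPL54 in trametinib at 1476 bp.

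A few members were called with a drug but not in DMSO. AMG510 added 2 of the 45 others (4.44%, against 6.47% of all genes without a DMSO promoter peak). They were MRPL1, a protein of the mobile stalk at the tRNA exit, with 13 tags at a fold of 5.16, and MRPL12, the stalk protein that contacts translation factors, with 15 tags at 4.18. Trametinib added 3 (6.67%, against 4.33%). These were MRPL33 with 15 tags at 5.41, MRPL58, a peptidyl-tRNA hydrolase built into the large subunit, with 14 tags at 4.78, and MRPL50 with 12 tags at 4.02. Members called in AMG510 had a median of 13 tags and those called in trametinib a median of 14, so of these 5 pileups only that of MRPL50 was under the median of its list.

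The other 40 members had no promoter peak in any list. Those named MRPL were MRPL2, MRPL9, MRPL10, MRPL11, MRPL13, MRPL14, MRPL15, MRPL16, MRPL18, MRPL22, MRPL23, MRPL27, MRPL28, MRPL30, MRPL35, MRPL37, MRPL38, MRPL39, MRPL44, MRPL46, MRPL47, MRPL49, MRPL51, MRPL53, MRPL55 and MRPL57. Those named MRPS were MRPS9, MRPS10, MRPS11, MRPS12, MRPS14, MRPS18A, MRPS18C, MRPS21, MRPS22, MRPS23, MRPS24, MRPS28, MRPS31 and MRPS36. The 40 include MRPL46 and MRPS11, which start head to head 318 bp apart. MRPL49, also among them, starts 134 bp from FAU, a gene for a cytosolic ribosomal protein.

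The mitoribosomal genes called under the 2 drugs were almost separate sets. Only MRPL3 and MRPS5 were in both, which is 2 of the 21 AMG510 genes (9.52%) and 2 of the 11 trametinib genes (18.2%). Over all genes, 41.1% of those with a promoter peak in AMG510 also had one in trametinib, and 53.2% of those in trametinib had one in AMG510. Among the cytosolic ribosomal protein genes these shares were 83.1% and 93.7%. With summits up to 2 kb away, MRPL40 joined the shared genes, giving 3. The difference rests on 1 library per drug and on peaks near the calling limit, and its origin was not tested.

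The strength of the DMSO peak did not order the 2 drugs alike. These bands of fold enrichment were set after the values were known. Of the 13 members with a DMSO fold under 5, AMG510 called 9 (69.2%) and trametinib 0, where the shares over all genes in that band were 29.8% and 21.9%. Between 5 and 6, AMG510 called 5 of 14 (35.7%) and trametinib 6 (42.9%), beside 42.3% and 34.6% of all genes. From 6 upward, AMG510 called 5 of 6 and trametinib 2 of 6, beside 70.1% and 62.8%. The members still called in trametinib had a median of 21.5 DMSO tags and those no longer called 15. For AMG510 these medians were 18 and 14, at nearly equal folds of 5.20 and 5.23.

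Among genes called in both libraries, most summits held fewer tags, scaled to the tags in calling of each library, with a drug than in DMSO. For AMG510 the median log2 ratio over 19 genes was −0.40 (range −1.10 to 0.56), with 16 lower and 3 higher (MRPL24, MRPL32 and MRPS33). Over all 2045 such genes the median was −0.49. MRPL4 alone had a counting interval that excluded 0, with 29 tags in DMSO and 14 in AMG510, a log2 ratio of −1.07 (−2.11 to −0.10). For trametinib the median over 8 genes was −0.58 (range −0.83 to 0.39), 7 of them lower and MRPL42 higher, and the median over all 1678 genes was −0.46. Here MRPL3 alone had an interval without 0, at −0.71 (−1.33 to −0.10). The shortest peak width, taken as the length to which reads were extended, was 177 bp in DMSO, 157 bp in AMG510 and 163 bp in trametinib. Pileups depend on this length, and its part in the lower values was not tested. Relative to the genome-wide background of each library, the medians were −0.23 for AMG510 and −0.46 for trametinib, beside −0.32 and −0.34 over all genes. On that scale the intervals of MRPL4 in AMG510 (−1.93 to 0.07) and of MRPL3 in trametinib (−1.21 to 0.02) included 0, as did those of all other members. A difference in tags was therefore not detectable for any single member relative to that background. The called peaks overlapped those of DMSO for 16 of the 19 and 7 of the 8 genes.

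**Figure D3:**
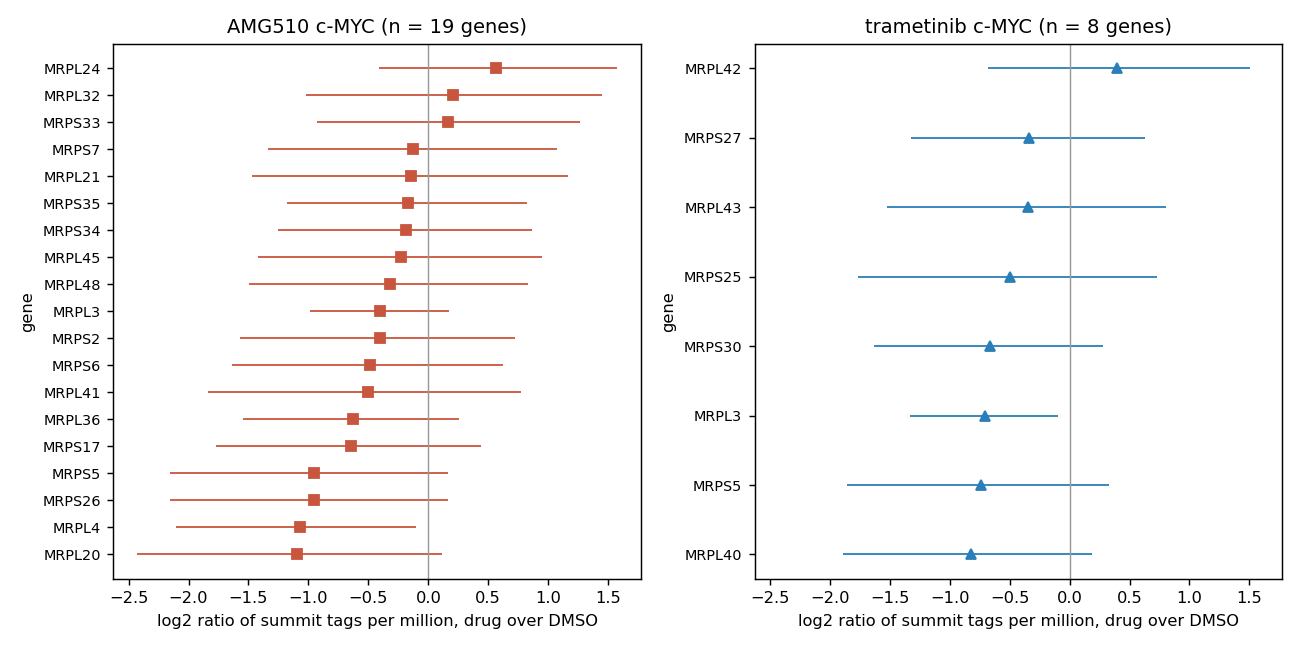
Log2 ratio of summit tags, scaled to the tags in calling, drug over DMSO (x axis), for the mitoribosomal genes called in both libraries (y axis), with AMG510 on the left and trametinib on the right. Points are ratios of 1 library each and bars are exact 95% counting intervals. The interval lies wholly below 0 for MRPL4 in AMG510 and for MRPL3 in trametinib and includes 0 for the others. Relative to the genome-wide background both of these intervals include 0.

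By symbol, 18 of 49 MRPL genes (36.7%) and 15 of 29 MRPS genes (51.7%) had a DMSO promoter peak, against 24.2% of all genes. In AMG510 they numbered 12 (24.5%) and 9 (31.0%), against 15.3% of all genes. In trametinib they numbered 7 (14.3%) and 4 (13.8%), close to the 11.8% of all genes. The ribosome of mitochondria descends from that of bacteria and has since gained proteins of its own. Of 46 members counted as having a counterpart in the bacterial ribosome, 17 were called in DMSO, and of 32 counted as specific to mitochondria, 16. MRPS18A and MRPS18B, relatives of MRPS18C, were counted among the latter. AMG510 retained 12 of the 17 with a counterpart and 7 of the 16 without, while trametinib retained 2 and 6. Over all genes 43.0% and 35.2% were retained, close to the 43.8% and 37.5% of the members specific to mitochondria. Those with a counterpart were above that share in AMG510 (70.6%) and below it in trametinib (11.8%). This split was not repeated under the peak filters, where the AMG510 excess of the members as a whole was not present. No test of these differences was possible with 1 library per group.

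Many members have head-to-head promoters. A protein-coding gene on the opposite strand starts within 1 kb upstream of 29 members, and of 2828 of all 19663 genes. In DMSO, 11 of these 29 had a promoter peak (37.9%, beside 36.6% of all genes with such a partner). Of the other 49 members, 22 had one (44.9%, beside 22.1% of all genes without a partner). For 13 of the 33 DMSO peaks the summit also lay within 1 kb of a start of another named protein-coding gene, for example IGHMBP2 at MRPL21, PSMA2 at MRPL32 and HIRA at MRPL40. Such peaks cannot be assigned to the mitoribosomal gene rather than to its neighbour.

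Summits were nearer to the start sites than those of all genes in DMSO and AMG510 and about equally near in trametinib. In DMSO the median distance was 95 bp, against 181 bp for all genes with a promoter peak, and 27 of 33 summits were within 200 bp (all genes, 53.7%). In AMG510 the median was 98 bp against 187 bp, and in trametinib 168 bp against 175.5 bp. The summit was downstream of the TSS for 24 of 33 genes in DMSO (72.7%, all genes 62.6%), 14 of 21 in AMG510 (66.7%, 61.1%) and 7 of 11 in trametinib (63.6%, 61.4%). On the canonical transcripts, 10 of the DMSO summits were upstream, 3 in the 5′ UTR, 10 in coding exons and 10 in introns. Peaks elsewhere in the gene bodies were few and included 1 in an intron of MRPS35 in DMSO (16 tags).

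**Figure D4:**
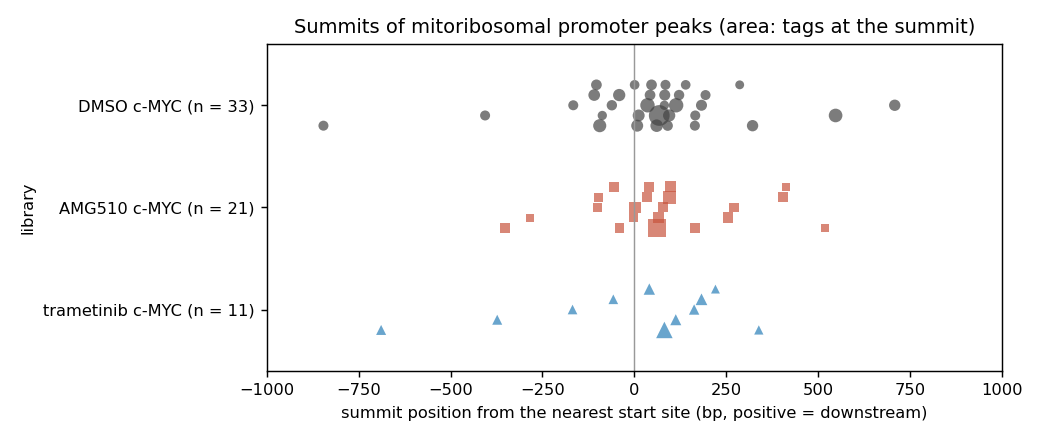
Position of the summit of each member's strongest promoter peak from the nearest start site in bp, positive downstream (x axis), by c-MYC library (y axis), with the marker area set by the number of tags and the vertical spread added for legibility. Most points lie just downstream of 0, and MRPL54 in DMSO lies farthest upstream at −846 bp.

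E-boxes near the summits were not all of the canonical kind. CACGTG was within 100 bp of 4 of 33 member peaks in DMSO (12.1%), against 16.9% of all promoter peaks of that list. In AMG510 it was near 3 of 21 (14.3%, against 14.4%) and in trametinib near 1 of 12 (8.33%, against 17.3%). CACGCG was more frequent, at 13 of 33 in DMSO (39.4%, against 23.3%) and 10 of 21 in AMG510 (47.6%, against 21.1%). In trametinib it was near 1 of 12 (8.33%, against 22.2%). The intron of MRPS6 held 3 copies within 100 bp of its DMSO summit. Both strands were searched, and a match is a stretch of letters, not a measured site.

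RefSeq promoters (GRCh38.p14, from 250 bases before to 50 after the TSS) were matched for 69 members. MRPL2, MRPL10, MRPL13, MRPL15, MRPL21, MRPL23, MRPL35, MRPS28 and MRPS36 were not matched. These windows lie at the RefSeq start, and a member's peak can be at another start, as for MRPS27 and MRPL34. Over these 69, CACGCG was in 11.6% of promoters and CACGTG in 13.0%, against 14.5% and 8.55% of all promoters. Cytosolic ribosomal protein genes had 21.4% and 5.71%. CACGCG was in 8 of 32 promoters of members with a DMSO peak, where all genes had 22.3%. It was in 0 of 32 of members without a peak in any c-MYC list, where all genes had 11.1%. For CACGTG the counts were 4 and 5 of 32, beside 12.7% and 6.81% of all genes. The letters AAGATGGC, the core bound by YY1, a factor known to act on mitochondrial genes, were in 20 of 69 promoters (29.0%), against 3.89% of all 15307 promoters. CCGGAAG, the core bound by ETS factors such as GABP, was in 28 (40.6%, against 14.1%). GCATGCGC, a core of the NRF1 site, was in 6 (8.70%, against 4.12%). In 70 promoters of cytosolic ribosomal protein genes the YY1, ETS and NRF1 cores were in 11.4%, 32.9% and 4.29%. A high share with the ETS core was thus common to both ribosomes. The YY1 core was in 10 of 32 promoters of members with a DMSO peak at any start. It was in 9 of 32 of members without a peak in any c-MYC list. Over all genes these shares were 5.71% and 3.22%. For the ETS core the member counts were 10 and 16 of 32, beside 19.2% and 11.8% of all genes. The ETS core began at a median position of −25.5 bases from the TSS, and the YY1 core at 9 bases. No test was run on these counts. The examples below carry the YY1 core (first 4) or the ETS core (last 2) in capitals, in the promoters of members called in DMSO.
MRPS30 (chr5:44808949-44808978, plus strand): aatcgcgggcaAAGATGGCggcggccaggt
MRPL42 (chr12:93467511-93467540, plus strand): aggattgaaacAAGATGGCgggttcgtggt
MRPS27 (chr5:72320206-72320235, minus strand): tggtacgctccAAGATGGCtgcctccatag
MRPL45 (chr17:38297170-38297199, plus strand): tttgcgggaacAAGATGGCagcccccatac
MRPL3 (chr3:131502985-131503014, minus strand): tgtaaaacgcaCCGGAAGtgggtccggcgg
MRPL43 (chr10:100987497-100987526, minus strand): tcgtcccggaaCCGGAAGcctcgaggttta

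**Figure D5:**
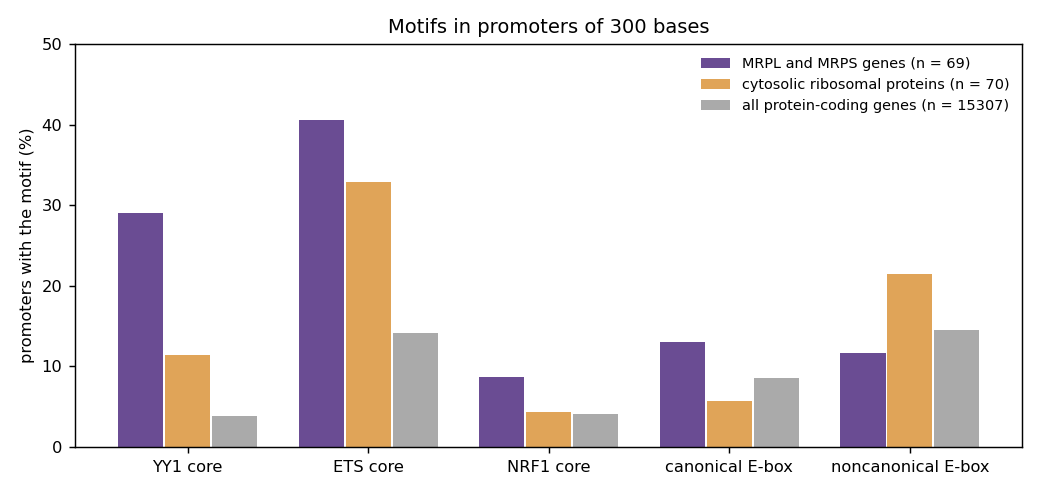
Percentage of RefSeq promoters, from 250 bases before to 50 after the TSS (y axis), that contain each motif on either strand (x axis), for the mitoribosomal genes, the cytosolic ribosomal protein genes and all protein-coding genes (bar colour, with the number of promoters). The YY1 core is in 29.0% of mitoribosomal promoters against 3.89% of all promoters, and the ETS core in 40.6% against 14.1%. Cytosolic ribosomal promoters have the YY1 core in 11.4% and the ETS core in 32.9%.

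The genes that work with the mitoribosome were examined in the same way, beside the shares of 24.2%, 15.3% and 11.8% of all genes called in DMSO, AMG510 and trametinib. Of 5 mitoribosomal proteins with other symbols, 2 were called in DMSO, 2 in AMG510 and 1 in trametinib. GADD45GIP1 was in all 3 lists (24, 14 and 15 tags), DAP3 in DMSO alone (15 tags) and AURKAIP1 in AMG510 alone (11 tags). Of 13 mitochondrial translation factors, 5 (38.5%), 3 (23.1%) and 1 (7.69%) were called. MRRF, the ribosome recycling factor, was in all 3 lists with 17, 11 and 18 tags, and GUF1 had the largest DMSO fold at 8.16. IgG called 1 of these 13 promoters. Of 23 genes for mitoribosome assembly and rRNA modification, 13 were called in DMSO (56.5%), 8 in AMG510 (34.8%) and 9 in trametinib (39.1%). C1QBP, a matrix protein, had 33 tags in DMSO and 14 in AMG510. Trametinib retained 8 of these 13 (61.5%, against 35.2% of all genes) and AMG510 6 (46.2%, against 43.0%). Of 20 genes for aminoacyl-tRNA synthesis, 10, 5 and 3 (15.0%) were called, and EARS2, FARS2 and YARS2 were in all 3 lists. FARS2, the phenylalanine enzyme, had 32, 17 and 20 tags.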

How the data were processed

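ChIP-seq libraries of MIA PaCa-2 cells were grouped by their titles, 1 library each for IgG in DMSO and for c-MYC in DMSO, AMG510 and trametinib. According to the submitters' processing notes and the study's methods, the authors used Trimmomatic 0.39 for trimming and BWA 0.7.17 for alignment to GRCh38, processed the alignments with SAMtools 1.9 and Picard, called peaks per library with MACS2 2.2.7.1 and removed peaks of the ENCODE exclusion list with bedtools 2.27.1. For each peak the deposited values are a score (10 times the −log10 q-value, as a whole number), a fold enrichment (a ratio of pileup to local background), and −log10 values of both the p-value and the q-value. All 4 served only to describe, rank or filter peaks, and equal scores in different libraries can stand for different enrichments.

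The pileup and background at each summit were solved from the deposited fold enrichment and −log10 p-value, a step tested on simulated data. The genome-wide background, the shortest peak width and an assumed 2700000000 bp of genome gave an estimate of the tags in calling. It was 22700000 for IgG, 24000000 for DMSO, 24300000 for AMG510 and 24800000 for trametinib. The study's own counts of uniquely mapped reads are lower and put trametinib last of the 4 libraries. Both mates of a pair can count as tags, so the exact Poisson and conditional binomial 95% intervals cover counting error only and are too narrow. Genes and start sites were taken from GENCODE 44, with the genome checked to be of the build of the lists. Coordinates are 1-based. A gene with several promoter peaks was represented by the one of highest fold. Peaks were matched by an overlap of at least 1 bp. Motifs were searched on both strands, and none of the 5 motifs contains another.

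With 1 library per group no test was run. Shares of members are set beside the same share over all protein-coding genes. The members, gene lists and alternatives were chosen with earlier results of these data known. Every member is named by the lists that call it, and values are given for the 10 members with the largest fold in DMSO, the 5 largest in each drug list, the 5 largest in neither drug list and those called with a drug alone. Other named genes were chosen after their values were seen. Computation used Python 3.11.15, numpy 2.4.6, pandas 2.3.3, scipy 1.17.1 and pysam 0.24.0.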

Additional observations from a re-analysis of the deposited data

How the results depend on the processing

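The alternatives changed the start-site window, the transcripts, the peak filter, the number of peaks, the overlap and the scale. Of the recomputed values, 34 were classed as unchanged and 15 as moved, and no median changed sign. A count was classed as unchanged within 1.5 times the value reported. A fold enrichment above 5 left 20 members in DMSO, 9 in AMG510 and 6 in trametinib, with 4 of the DMSO members in AMG510, 5 in trametinib, and 1 shared by the drugs. A score above 60 left 13, 2 and 3, with 1, 2 and 1. With the 5431 most significant peaks of each c-MYC list, 12 members were shared by DMSO and AMG510 and 1 by the drugs. With fold enrichment in place of tags, the median log2 ratio was −0.25 for trametinib and −0.20 for AMG510. Both were smaller in size than the −0.58 and −0.40 from tags, though only the trametinib one was classed as moved. The filters leave fewer peaks by construction, and the other causes were not tested. The shares between the drugs, and the medians relative to the genome-wide background, were added after seeing the data. The excess of AMG510 over all genes among DMSO members was not present under these 3 peak filters. No paired analysis was possible because there was a single library for each condition, and none could be left out. Pileups near the 7 or 8 tags needed for a call limit every count.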
